A study of Mus musculus with 2 samples.

Results

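The TRIM genes encode proteins with a tripartite motif, most of them ubiquitin ligases. They were taken as every gene symbol of the deposited tables made of Trim, a number and at most 1 letter, which gave 65 genes (99 transcript rows) of 23444 gene symbols. The tables hold 2 libraries of macrophages that were grown in culture from the bone marrow of FVB mice, 1 library per group. The first was labelled WT and RON proficient, and the second RON TK-/- and RON deficient, RON being the receptor tyrosine kinase that Mst1r encodes. Both groups carry the same label for treatment, rIL-4 (recombinant interleukin-4) given for 72 hours with a dose of 10 ng/mL, and neither label states an age, a number of mice or whether marrow was pooled. By these labels the comparison is one of macrophages with and without the RON kinase, and the labels are examined below.

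A TRIM protein carries a RING finger, 1 or more B-boxes and a coiled coil, followed by a C-terminal domain by which the family is divided into classes. The RING finger binds a ubiquitin-conjugating enzyme and passes ubiquitin to a substrate, and the C-terminal domain, most often PRY-SPRY, commonly selects that substrate. In macrophages several members act in the sensing of viral nucleic acids and in signalling from Toll-like receptors, and interferons induce a number of them.

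Values are FPKM, which count fragments relative to transcript length and sequencing depth, summed over the rows of a gene. A ratio is log2 of FPKM + 1 in the RON TK-/- labelled library over FPKM + 1 in the WT labelled library, so that a positive value means higher in the former, and it understates differences of low genes. A gene with at least 1 FPKM in either library was taken as detected. With 1 library per group no test was possible, and each difference compares 2 libraries and has no replicate check.

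The labels were examined before the family. Mst1r was listed at 0 in both libraries and so checked neither label. Arg1, a gene that interleukin-4 induces in macrophages, had 1.005 FPKM in the WT labelled library and 5041 in the RON TK-/- labelled library, while the inflammatory cytokine gene Tnf had 1262 and 0.525. Retnla and Chil3, also induced by interleukin-4, were listed at 0 in the WT labelled library and had 3665 and 4604 FPKM in the other. Il1b had 823 and 0.199 FPKM in the libraries labelled WT and RON TK-/-, and Cxcl10 had 4711 and 0.231. The library labelled WT thus lacked markers of the treatment on its label, and every direction here rests on the labels as deposited. The libraries differed in these markers as well as in the genotype label. With 1 library per group, a difference that goes with RON cannot be told apart from one that goes with treatment state. Neither was tested. By the coverage column, the depth was about 59800000 reads for the WT labelled library and 67100000 for the other. All 7 macrophage markers found (such as Csf1r and Cd68) were detected, with summed levels of 4521 and 6275 FPKM in the libraries labelled WT and RON TK-/-, most of it Lyz2 (3317 and 4651). Of these markers Fcgr1 (26.6 and 3.58) and Mertk (32.5 and 9.68) were at least 2-fold lower in the second library and Itgam (61.0 and 185) higher. All 4 fibroblast markers were detected too, with 660 and 878 FPKM summed. Col1a1 (195 and 250) and Col1a2 (407 and 433) lay within 2-fold, and Col3a1 (48.5 and 171) and Pdgfra (8.93 and 24.3) were higher by 2-fold or more in the second library. Markers of T cells, B cells, dendritic cells, erythroid cells, mast cells and muscle gave 0 detected genes, and of 4 neutrophil markers only S100a8 was detected, at 1.44 and 1.75 FPKM. The part of other cells in the differences of TRIM genes was not tested, and a smaller number of cells of a type cannot be told apart from less RNA per cell.

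The TRIM genes with the 3 largest differences, Trim30d, Trim21 and Trim30a, were lower in the RON TK-/- labelled library. Of the 65 genes, 36 were detected, 26 of them with at least 1 FPKM in both libraries. At least 2-fold lower were 10 of the 36 (27.8%), against 8.71% of the 11288 detected genes of all kinds. At least 2-fold higher were also 10 (27.8%), against a background of 25.6%, a share near that of any gene. The remaining 16 lay within 2-fold. The median log2 ratio was 0.54 for the 36 members and 0.57 for all detected genes, although the members lay on both sides of it. Relative to that median 11 members were at least 2-fold lower (background 14.4%) and 2, Trim65 and Trim29, at least 2-fold higher (background 8.38%).

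**Figure D1:**
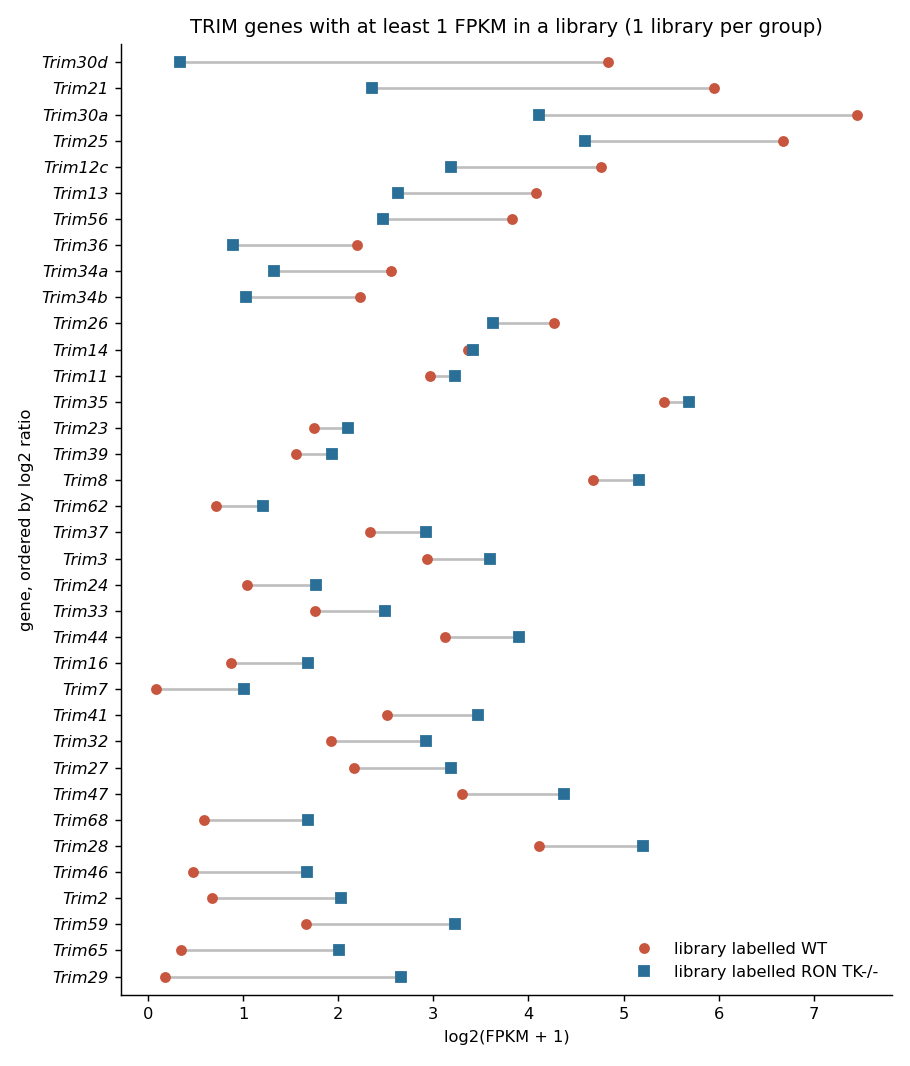
Levels of the 36 detected TRIM genes as log2(FPKM + 1), with a circle for the WT labelled library and a square for the RON TK-/- labelled library, ordered by log2 ratio from lowest (top) to highest. Trim30d, Trim21, Trim30a and Trim25 show the widest gaps with the circle to the right, and Trim29 the widest gap with the square to the right.

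The summed level of the family was 603 FPKM in the WT labelled library and 336 in the RON TK-/- labelled library, which was 0.141% and 0.0753% of all FPKM. Trim30a, Trim25 and Trim21 together had 294 FPKM less in the latter, more than the whole difference of 267, since many other members were higher there. The order of the members differed accordingly. Trim30a (29.0% of the family's FPKM), Trim25 (16.8%) and Trim21 (10.1%) led in the WT labelled library. Trim35 (15.05%), Trim28 (10.7%) and Trim8 (10.4%) led in the RON TK-/- labelled library, where Trim30a stood at rank 6. Trim35, Trim8, Trim25, Trim26, Trim28 and Trim30a were among the 10 most abundant members in both.

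Promoter windows are shown first for the members with the largest differences, because several interferon-responsive members of the family are known to carry an interferon-stimulated response element (ISRE), a site at which IRF proteins bind. Windows run from 250 bases before to 50 after the gene's start, 5′ to 3′ on the gene's strand, from RefSeq on GRCm38.p6, and 50 of 65 members had one. The window nearest the start of a gene's most abundant row was used. Capitals mark matches to GAAANNGAAA on either strand, the core of an ISRE, and overlapping matches run together. The 4 windows below belong to the 4 genes that were lowest in the RON TK-/- labelled library, and the fifth, of Trim59, is that of the member with the highest ratio among those with a window.
Trim30d, chr7:104507800-104508099, minus strand: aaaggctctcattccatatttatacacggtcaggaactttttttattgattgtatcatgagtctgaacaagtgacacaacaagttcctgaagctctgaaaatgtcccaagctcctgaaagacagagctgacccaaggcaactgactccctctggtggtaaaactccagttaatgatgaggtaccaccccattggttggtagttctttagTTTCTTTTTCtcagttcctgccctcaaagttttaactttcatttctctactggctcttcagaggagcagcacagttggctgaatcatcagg
Trim30a, chr7:104465144-104465443, minus strand: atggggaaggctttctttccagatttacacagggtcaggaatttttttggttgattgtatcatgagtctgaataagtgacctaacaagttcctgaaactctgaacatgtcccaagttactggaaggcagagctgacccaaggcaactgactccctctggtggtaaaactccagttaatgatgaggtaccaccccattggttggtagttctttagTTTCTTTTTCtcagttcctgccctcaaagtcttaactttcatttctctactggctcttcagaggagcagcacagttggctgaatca
Trim21, chr7:102565433-102565732, minus strand: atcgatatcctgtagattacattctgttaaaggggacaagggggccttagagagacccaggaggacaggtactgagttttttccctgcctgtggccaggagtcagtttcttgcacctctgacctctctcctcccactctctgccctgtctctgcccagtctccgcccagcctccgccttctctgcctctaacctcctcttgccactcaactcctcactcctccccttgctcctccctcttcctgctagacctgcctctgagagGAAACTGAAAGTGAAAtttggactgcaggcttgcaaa
Trim25, chr11:88999153-88999452, plus strand: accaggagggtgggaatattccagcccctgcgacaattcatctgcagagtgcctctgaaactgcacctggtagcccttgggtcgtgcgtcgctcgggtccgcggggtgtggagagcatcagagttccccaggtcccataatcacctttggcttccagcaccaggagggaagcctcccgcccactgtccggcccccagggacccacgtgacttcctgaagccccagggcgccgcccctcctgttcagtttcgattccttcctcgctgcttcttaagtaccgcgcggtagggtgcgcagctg
Trim59, chr3:69044693-69044992, minus strand: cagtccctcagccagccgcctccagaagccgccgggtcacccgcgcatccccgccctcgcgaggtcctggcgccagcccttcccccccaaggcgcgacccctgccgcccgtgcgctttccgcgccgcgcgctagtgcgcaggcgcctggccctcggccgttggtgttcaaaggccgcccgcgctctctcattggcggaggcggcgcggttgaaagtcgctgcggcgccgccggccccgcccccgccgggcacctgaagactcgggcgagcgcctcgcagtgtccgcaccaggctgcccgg
The windows of Trim30a and Trim30d were nearly the same, with 276 of 295 aligned bases identical (93.6%), and both hold 1 match, 36 and 41 bases before the start. Trim21 holds 2 overlapping matches that begin at bases 14 and 20 after the RefSeq start of its window. That start lies 13 bases from the deposited start of the gene. Trim25 and Trim59 hold none. Shorter stretches around the match are given for the other 3 detected members that hold one in this window, to show that the match lies near the start in 2 of them and farther upstream in Trim26.
Trim12c, chr7:104353354-104353393, minus strand: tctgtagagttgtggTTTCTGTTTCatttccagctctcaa
Trim34a, chr7:104244452-104244491, plus strand: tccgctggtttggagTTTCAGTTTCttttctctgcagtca
Trim26, chr17:36836971-36837016, plus strand: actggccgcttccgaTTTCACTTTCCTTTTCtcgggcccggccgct
The match begins 29 bases before the start in Trim12c, at base 11 after it in Trim34a, and 160 and 154 bases before it in Trim26.

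Counting every window of a gene, the ISRE core was found in 5 of 9 lower members with a window, in 1 of 9 members within 2-fold (Trim26) and in 1 of 8 higher members (Trim2, in a window other than that of its most abundant row). Over all genes with such a window, 1079 of 27025 (3.99%) hold it. The 5 lower genes are Trim12c, Trim21, Trim30a, Trim30d and Trim34a, of which all but Trim21 lie in 1 gene cluster, and Trim30a and Trim30d share most of their window, so these are not independent matches. Trim12a, of the same cluster, holds the motif and was listed at 0 in both libraries. The same windows were searched on both strands for the STAT6-type letters TTCNNNNGAA, present in 8.01% of genes. They were found in 0 of 9 lower members, 1 of 9 within 2-fold (Trim39) and 2 of 8 higher members (Trim46 and Trim68). Of the members that were not detected, 5 of 24 hold them too. Another set of letters, TTCNNNGAA, is present in 9.55% of genes. It was found in 0 of 9 lower members, 0 of 9 within 2-fold, 1 of 8 higher and 4 of 24 not detected. A match describes letters in a window and does not show binding.

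The chromosome 7 cluster held 5 of the 10 lower members, among them Trim30d with the lowest ratio of the family. It spans 8 members from Trim6 (start 104218795) to Trim30d (end 104507849) on chromosome 7 of mm10, and it encodes proteins related to human TRIM5, a restriction factor of retroviruses. All 5 detected members of it were at least 2-fold lower in the RON TK-/- labelled library, beside 8.71% of all detected genes. The summed level of the 8 members was 238 FPKM in the WT labelled library and 27.4 in the other. That was 39.5% and 8.17% of the family's FPKM.

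Trim30a, which limits Toll-like receptor signalling through the adaptors TAB2 and TAB3, lies at 104409026 to 104465193. It had 175 FPKM in the WT labelled library and 16.2 in the RON TK-/- labelled library, a log2 ratio of -3.35 from about 38463 and 3982 estimated reads. Its neighbour Trim30d, at 104470014 to 104507849, had 27.5 and 0.265 FPKM and the lowest ratio of the family, -4.49. Trim30d thus had a level like that of Trim12c in the former and was near 0 in the latter, while Trim30a was detected in both. Trim12c, at 104338754 to 104353358, had 26.2 and 8.12 FPKM, a log2 ratio of -1.58. The paralogues Trim34a and Trim34b had lower levels, with 4.86 against 1.498 FPKM and 3.67 against 1.03, log2 ratios of -1.23 and -1.20. The added 1 FPKM makes these ratios smaller, and without it the WT labelled library was 3.22-fold higher for Trim12c, 3.24-fold for Trim34a and 3.55-fold for Trim34b.

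**Figure D2:**
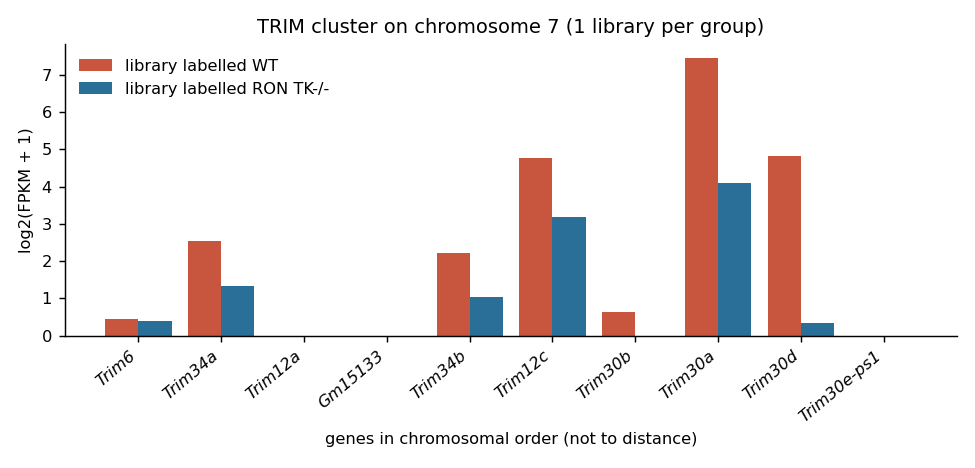
Bars give log2(FPKM + 1) of the genes of the TRIM cluster on chromosome 7 in chromosomal order, in the libraries labelled WT (left bar of a pair) and RON TK-/- (right bar). The bar of the WT labelled library is the higher one for Trim34a, Trim34b, Trim12c, Trim30a and Trim30d, while Trim12a, Gm15133 and Trim30e-ps1 have no bar because they are listed at 0.

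The other 3 members of the cluster were not detected. Trim6 had 0.359 and 0.310 FPKM in the libraries labelled WT and RON TK-/-, Trim30b had 0.559 and was listed at 0, and Trim12a was listed at 0 in both. Within 100 kb of the cluster lie 13 genes that are not members, among them olfactory receptor genes, and 13 of 13 were listed at 0 in both libraries. Copies in the cluster resemble each other, so words of 50 bases, the read length, were compared between the transcripts. Trim34a shares 41.5% of its words with Trim34b, and Trim34b shares 59.0% with Trim34a, so the split between this pair is uncertain and their sum is the safer reading. Trim30a shares 6.53% with Trim30d, and Trim12c 6.46% with other members, so most of their sequence tells them apart. Trim12a shares 16.1% of its words, all of them with Trim12c.

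Outside the cluster 5 more members were at least 2-fold lower. Trim21, a cytosolic receptor for the Fc part of antibodies that directs antibody-coated viruses to the proteasome, lies at 102557922 to 102565469 on chromosome 7. It had 60.7 FPKM in the WT labelled library and 4.12 in the RON TK-/- labelled library, a log2 ratio of -3.59. Trim68, a coactivator of the androgen receptor whose gene lies 112110 bases further on, went the other way with 0.505 and 2.20 FPKM. Trim25, the ligase that activates the RNA sensor RIG-I and is itself induced by interferon, lies at 88999403 to 89020293 on chromosome 11. It had 102 and 23.2 FPKM, a log2 ratio of -2.08.

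Smaller differences in the same direction were found for 3 genes. Trim13, anchored in the membrane of the endoplasmic reticulum, had 15.9 FPKM in the WT labelled library and 5.19 in the RON TK-/- labelled library. Trim56, which acts on the DNA-sensing pathway of cGAS and STING, had 13.2 and 4.55. Trim36, a microtubule-binding ligase, had 3.57 and 0.855, and it was the only lower member that is not on the interferon and antiviral list. The log2 ratios of these genes were -1.45, -1.36 and -1.30.

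That list had 22 symbols, 20 of which were found in the tables and 14 detected. In the RON TK-/- labelled library 9 of the 14 were lower by 2-fold or more and 2 higher, with a median log2 ratio of -1.29. Of the 22 detected members off the list 1 was lower and 8 were higher, with a median of 0.79. On the list 64.3% were thus lower and 14.3% higher, off it 4.55% and 36.4%, and among all detected genes 8.71% and 25.6%. The 2 higher genes on the list were Trim65, which ubiquitinates the RNA sensor MDA5, with 0.272 and 3.03 FPKM, and Trim32, with 2.79 and 6.58. The 3 within 2-fold were Trim26, Trim14 and Trim23. Trim26, a ligase encoded in the MHC region that targets IRF3, had 18.3 and 11.3 FPKM, a log2 ratio of -0.65, which is at least 2-fold lower relative to the median of all genes. Trim14, a mitochondrial adaptor of MAVS without a RING finger, had 9.26 and 9.70. Trim23, which carries an ARF GTPase domain, had 2.35 and 3.31. The list was drawn up with earlier results of these libraries known and is no independent evidence of a direction.

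**Figure D3:**
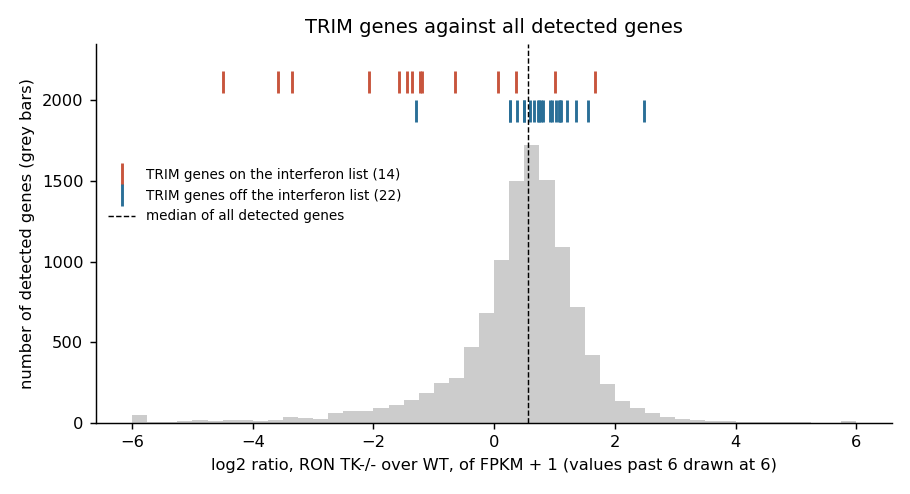
Grey bars count the 11288 detected genes by log2 ratio of FPKM + 1 (RON TK-/- labelled library over WT), the dashed line is their median of 0.57, and ticks mark the 14 detected TRIM genes on the interferon list (upper row) and the 22 off it (lower row). Of the upper ticks 9 lie at -1 or below, and of the lower ticks 1 does.

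Of the 10 members higher in the RON TK-/- labelled library, Trim29 had the largest ratio. Trim29, which lacks a RING finger and restrains innate signalling in airway macrophages, lies at 43310763 to 43336125 on chromosome 9. It had 0.130 FPKM in the WT labelled library and 5.30 in the RON TK-/- labelled library, a log2 ratio of 2.48, from about 23.5 and 1008 estimated reads. Trim65 followed with a log2 ratio of 1.66, from about 48.8 and 589 reads. Trim59, a ligase with a transmembrane segment, had 2.17 and 8.36 FPKM, a log2 ratio of 1.56.

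The remaining higher members had ratios close to 2-fold or low levels. Trim28, the corepressor that KRAB zinc finger proteins bring to chromatin, was the most abundant of them with 16.2 and 35.9 FPKM in the libraries labelled WT and RON TK-/-. Trim47 had 8.87 and 19.7 FPKM, and Trim27 had 3.47 and 8.12. Trim2, a ligase of neurofilament light chain in neurons, had 0.587 and 3.07, and Trim46, which organises microtubules in axons, had 0.388 and 2.19. The log2 ratio of Trim32, 1.001, was the nearest above the 2-fold limit, and that of Trim41, 0.96, the nearest below it. Only Trim29 and Trim65 stayed at least 2-fold higher relative to the median of all genes, and Trim59 lay at that limit with 0.997.

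Members within 2-fold included abundant ones. Trim35, a ligase of the glycolytic enzyme PKM2, had 41.9 and 50.5 FPKM in the libraries labelled WT and RON TK-/-, and Trim8, which promotes signalling from TNF and interleukin-1 receptors, had 24.5 and 34.9. Trim3 had 6.64 and 11.1, Trim11 had 6.81 and 8.38, and Trim44, a protein without a RING finger, had 7.72 and 13.9. These are levels of 5 genes that were all higher in the second library by less than 2-fold. Relative to the median of all genes, Trim35, Trim8 and Trim11 turned negative, at -0.30, -0.074 and -0.30. Trim41 had 4.72 and 10.1 FPKM, Trim37, a MATH domain ligase, 4.03 and 6.57, and Trim39 1.94 and 2.82. Trim33, which ubiquitinates SMAD4, had 2.36 and 4.64, and Trim24, a coregulator of nuclear receptors, 1.06 and 2.40. Trim16, which acts on damaged lysosomes, had 0.826 and 2.21, and Trim62 had 0.644 and 1.31. In FPKM without the added 1, Trim41 (2.14-fold), Trim24 (2.27-fold), Trim16 (2.67-fold) and Trim62 (2.04-fold) were past 2-fold. Trim7, a ligase that binds glycogenin, had 0.0587 and 1.01, a 17.1-fold difference in FPKM that stays inside the 2-fold limit because of the added 1, and about 2.64 estimated reads lie behind the lower value.

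Among the 29 members that were not detected, 14 were listed at 0 in both libraries: Trim9, Trim12a, Trim31, Trim40, Trim42, Trim50, Trim54, Trim55, Trim58, Trim60, Trim61, Trim67, Trim71 and Trim75. Trim54 and Trim55 are known from striated muscle. The other 15 (Trim6, Trim10, Trim15, Trim17, Trim30b, Trim38, Trim43a, Trim43b, Trim43c, Trim45, Trim52, Trim63, Trim66, Trim69 and Trim72) reached at most 0.621 FPKM, the value of Trim45 in the RON TK-/- labelled library. Trim38, an interferon-induced ligase on the list above, was listed at 0 in the WT labelled library and had 0.0408 FPKM in the other. Trim43a, Trim43b and Trim43c share 42.2% to 47.8% of their 50-base words with other members, so their values are uncertain.

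By domain class, the lower genes were mostly of the PRY-SPRY type, which is also the largest class. Of 34 PRY-SPRY members 18 were detected, 7 of them lower by 2-fold or more in the RON TK-/- labelled library and 4 higher, with a median log2 ratio of 0.26. These are 38.9% and 22.2%, beside backgrounds of 8.71% and 25.6%. Of the 7, 5 are the lower genes of the chromosome 7 cluster, and the others are Trim21 and Trim25. The share of this class thus largely counts the cluster again. Outside the cluster 5 of 31 detected members of any class were lower (16.1%). The 3 lower genes of other classes were Trim36 (COS, fibronectin type III and SPRY domains), Trim56 (no defined C-terminal domain in the scheme used) and Trim13 (transmembrane). The 3 detected members with a PHD finger and bromodomain, Trim24, Trim28 and Trim33, all had positive ratios, with a median of 0.75. The 3 detected members with NHL repeats, Trim2, Trim3 and Trim32, had a median of 1.001, and the 4 without a RING finger, Trim14, Trim16, Trim29 and Trim44, one of 0.79. Trim14 alone among these 10 genes turned negative, to -0.51, relative to the median of all genes. Medians of 3 or 4 genes are given as a description beside the 0.57 of all genes.

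**Figure D4:**
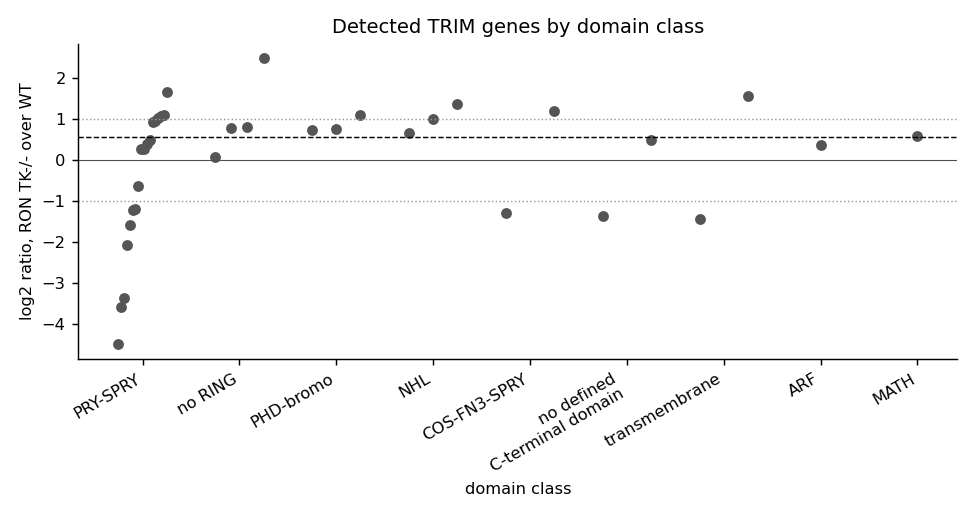
Each point is the log2 ratio (RON TK-/- labelled library over WT) of 1 detected TRIM gene, by domain class, with dotted lines at 2-fold and a dashed line at the median of all detected genes, 0.57. The PRY-SPRY points run from -4.49 to 1.66, and the points of the PHD-bromodomain, NHL and RING-less classes are all above 0, with Trim14 (0.06) below the dashed line.

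Some neighbouring members elsewhere in the genome differed in the same direction and others did not. Trim47 and Trim65 lie 14473 bases apart on chromosome 11 and were both at least 2-fold higher in the RON TK-/- labelled library. The listed spans of Trim47 and Trim65 do not overlap, and their compared transcripts share no word of the read length. An overlap of 225 exonic bases of Trim65 with annotated Trim47 exons on the same strand thus lies outside the listed span of Trim47. Its effect on the levels was not tested. On the same chromosome Trim41 and Trim7, 8747 bases apart, both had more FPKM in the RON TK-/- labelled library. Trim41 overlaps 31 bases of the abundant Rack1 on the opposite strand (383 and 587 FPKM). In the MHC region of chromosome 17, 6 members were listed and 2 detected, Trim26 (lower) and Trim39 (higher), both within 2-fold.

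For 10 members at least 2 transcript rows reached 1 FPKM in a library, and their split is an estimate from reads of 50 bases. Trim12c had 2 rows of nearly equal level in the WT labelled library, 13.0 FPKM for the 3736-base row and 13.2 for the 3617-base row. In the RON TK-/- labelled library they had 0.952 and 7.17, so the longer row gave 49.5% of the gene in the former and 11.7% in the latter. Trim47 showed the same kind of difference upward. Its 2192-base row had 5.21 and 16.1 FPKM in the libraries labelled WT and RON TK-/- while its 2195-base row had 3.65 and 3.61. These rows are close in length, as are those of Trim32 below, so their split is uncertain. The leading row of Trim24 was not the same in both, with 81.7% of its FPKM in the 6089-base row in the WT labelled library and 44.5% in the other.

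Rows of the other members kept their order or rested on small differences in sequence. The 2 main rows of Trim32 are 3193 and 3196 bases long, and the first had 0.000614 and 2.73 FPKM in the libraries labelled WT and RON TK-/- while the second had 2.79 and 3.85, so the gene passed 2-fold through a row that is hard to tell from the other. The main rows of Trim21 (93.4% of the gene in the WT labelled library), Trim13 (89.2%) and Trim30d (91.9%) were also the main rows in the RON TK-/- labelled library. Trim3, Trim26 and Trim33 kept the same leading row in both.

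**Figure D5:**
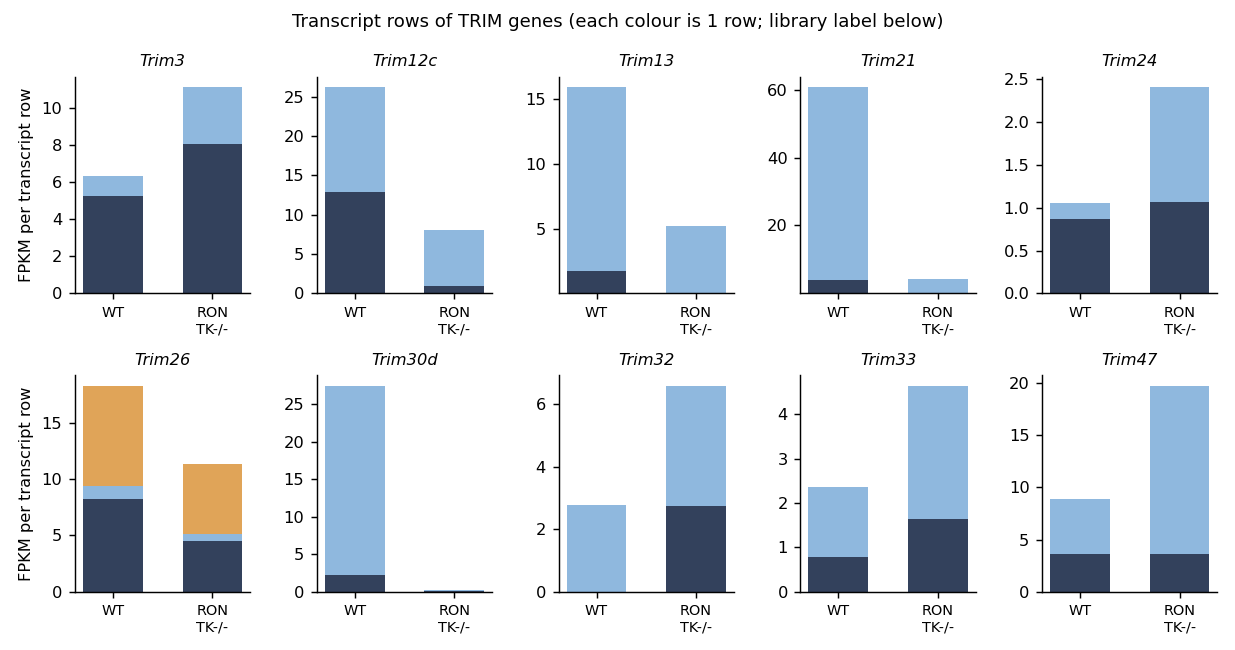
Stacked bars give FPKM of the transcript rows of 10 TRIM genes in the libraries labelled WT (left) and RON TK-/- (right), 1 colour per row that reached 1 FPKM in a library, with an axis of its own per gene. In Trim12c the dark row is 13.0 FPKM at left and 0.952 at right, and in Trim47 the light row is 5.21 and 16.1 while the dark row is 3.65 and 3.61.

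Proteins that work with TRIM ligases were read from lists set for this purpose. Of 20 partners in RNA and DNA sensing and interferon signalling, 20 were detected, 10 were at least 2-fold lower in the RON TK-/- labelled library and 1 was higher, with a median log2 ratio of -1.06. These are 50.0% and 5.0%, beside backgrounds of 8.71% and 25.6%. The lowest were the sensor of long double-stranded RNA Ifih1 (MDA5) with 86.9 and 3.68 FPKM, the transcription factor Irf7 with 88.5 and 4.49, Dhx58 with 35.3 and 4.63, and the kinase Ikbke with 88.8 and 18.9. Ddx58, which encodes the TRIM25 substrate RIG-I, had 50.1 and 10.8, and Tab2, a target of TRIM30, 68.5 and 26.5. The higher gene was Mavs, the mitochondrial adaptor on which RIG-I and MDA5 signal, with 2.98 and 16.1. Trim65 and Mavs were thus higher where Ifih1 was lower.

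Most of the ubiquitin-conjugating enzymes that RING ligases use lay within 2-fold. Of 12, 12 were detected and 11 lay within 2-fold, with a median log2 ratio of 0.05, which is below the 0.57 of all genes. The exception was Ube2l6, the conjugating enzyme of the interferon-induced modifier ISG15, with 133 and 32.4 FPKM in the libraries labelled WT and RON TK-/-. The next were Ube2e2 with 17.1 and 9.42, Ube2d3 with 199 and 134, and Ube2v2 with 4.29 and 6.68. Relative to the median of all genes, 3 of the 12 (Ube2l6, Ube2e2 and Ube2d3) were at least 2-fold lower, beside a background of 14.4%. Of 10 corepressor partners of TRIM28, 4 were higher by 2-fold or more and 0 lower, and the median was 0.72, near the 0.57 of all genes. That is 40% beside a background of 25.6%, and 1 partner was at least 2-fold higher relative to the median of all genes. The 4 were the histone methyltransferase Setdb1 (2.69 and 11.6 FPKM), Chd3 (4.86 and 14.7), Cbx3 (17.5 and 48.4) and Cbx5 (5.70 and 13.4). Among tripartite motif proteins with other gene names, Pml, which forms nuclear bodies and is induced by interferon, had 26.3 and 5.38 FPKM, a log2 ratio of -2.10, and the microtubule-binding Mid1 had 3.13 and 5.002. Mid2 and Mefv were not detected.

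For a comparison with another group of RING finger genes, the symbols made of Rnf and a number were read the same way. Of 76 such genes 57 were detected, 5 (8.77%) were lower by 2-fold or more and 8 (14.0%) higher in the RON TK-/- labelled library, with a median log2 ratio of 0.45. The backgrounds are 8.71% and 25.6%. Relative to the median of all genes, 13 of the 57 were at least 2-fold lower (background 14.4%) and 3 at least 2-fold higher (background 8.38%). For the 36 detected TRIM genes these counts were 11 and 2. The difference between the TRIM and Rnf shares was not tested.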

How the data were processed

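Per the labels, RNA was isolated with TRIZOL and TruSeq RNA libraries were sequenced as single reads of 50 bases. The authors deposited FPKM per RefSeq transcript, with the mean coverage per base, in tables whose headers use Cufflinks column names. The submitters' processing notes name mm10 and DESeq. Aligner, annotation release and strand use were not given in the sources used here. From the deposited FPKM the rows of each symbol were summed and log2 ratios computed with a pseudocount of 1 FPKM. A minimum of 1 FPKM in either library and a limit of 2-fold were used (Python 3.11.15, pandas 2.3.3). Estimated reads are deposited coverage times length over 50. They are not counts, so no count model was used. An exact 0 can be a failed estimate, so such genes are only called listed at 0, without a fold. Starts are printed counted from 1.

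Every detected member is named. Partner lists name up to 4 detected genes with the largest absolute ratio, beside any that complete a count of 5 or fewer or are a TRIM substrate (Ddx58, Tab2), chosen after their values were seen. Members, lists, the domain classes and the Rnf comparison were chosen with earlier results of these data known. Exon overlaps and 50-base words come from GENCODE M21 (GRCm38), in which 65 of 65 members matched. The computation was tested on simulated data with planted differences. Alternatives were other pseudocounts, filters, scalings, row choices and thresholds.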

Additional observations from a re-analysis of the deposited data

How the results depend on the processing

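With 1 library per group no replicate could be left out, and no paired analysis was possible because each group has 1 library. The numbers of TRIM genes at least 2-fold higher and lower in the RON TK-/- labelled library were 10 and 10 as reported. They were 14 and 10 with a pseudocount of 0.1 FPKM (34.8% and 9.84%), and 1 and 6 with one of 5 FPKM (8.71% and 6.12%). Brackets here and below give the shares of all detected genes. With a minimum of 5 FPKM, which tests fewer genes, 6 of 22 were higher and 7 lower (25.1% and 10.1%). After the median of all detected genes was set to 0, 2 were higher and 11 lower (8.38% and 14.4%). At 1.5-fold 18 of 36 were higher (48.9%), a share near that of any gene, and 11 were lower (12.5%). At 4-fold 1 was higher and 4 were lower (3.71% and 4.10%). With the median set to 0 and 1.5-fold together, a setting chosen after seeing the data, 5 were higher and 11 lower (19.2% and 22.9%). The median log2 ratio of the members, 0.54, was 0.71 with a pseudocount of 0.1 and 0.27 with one of 5 FPKM. It was 0 without a filter, 0.38 with the 5 FPKM minimum, 0.59 as TPM, 0.44 from the most abundant row and 0.51 from estimated reads. It turned negative, -0.025, once the median of all genes was set to 0. The most abundant row alone took Trim12c to -0.80, Trim32 to 0.36 and Trim46 to 0.98, inside 2-fold. No gene past 2-fold changed sign under any alternative run. Among the detected members the fewest estimated reads lie behind Trim7 (2.64) and Trim29 (23.5) in the WT labelled library, which limits the precision of their ratios.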
